A study of Homo sapiens with 6 samples.

Results

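The genes described here are 10 members of the Notch pathway: the receptors NOTCH1, NOTCH2 and NOTCH3, the ligands JAG1, JAG2 and DLL1, the receptor glycosyltransferase LFNG, and the target genes HES1, HEY1 and NRARP. They were chosen by symbol from the 58735 genes of the deposited count table, and all 10 passed the filter on low counts that left 15430 genes to test. RNA was sequenced from 6 libraries of MCF10A, an immortalized, non-malignant human breast epithelial cell line. In 3 libraries the cells had been transfected with a nontargeting control siRNA pool (siControl), and in the other 3 with siRNA against DAB2IP (siDAB2IP), a Ras GTPase-activating protein. All cells were grown in the same medium with horse serum, insulin, EGF, cholera toxin and hydrocortisone, and were collected 48 hours after transfection. The comparison asks how the RNA of these genes differs once DAB2IP has been knocked down, in a single cell line and with a single siRNA pool.

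Notch is a receptor that signals between touching cells. A Jagged or Delta-like ligand on one cell binds the receptor on its neighbor, which lets an ADAM protease and then γ-secretase cut the receptor. The freed intracellular domain enters the nucleus, joins the DNA-binding protein RBPJ and a Mastermind coactivator, and switches on genes of the HES and HEY families, which are transcriptional repressors, and NRARP, which dampens the signal. In the mammary gland, Notch signaling takes part in the choice between basal and luminal fates. Receptor activity depends on cleavage, which RNA-Seq does not measure.

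DAB2IP itself was at 103, 94.2 and 77.4 TMM-normalized CPM (counts scaled to a common library total) in siControl 1, 2 and 3, and at 27.5, 25.6 and 22.4 CPM in siDAB2IP 1, 2 and 3. Its level fell to 27.5% of that in siControl (log2 fold change −1.86 ± 0.13, SE, edgeR quasi-likelihood adjusted p = 9.71e-05, n = 3 per group). Each library held between 16353783 and 21916062 counts. The main axis of variation, with 55.3% of the variance, separated siControl from siDAB2IP. The siControl libraries lay at 24.7 to 27.2 on it. The libraries siDAB2IP 1 and 2 lay at −16.1 and −17.2, and siDAB2IP 3 lay farther out, at −45.7. The next axis, with 19.7%, set the libraries numbered 3 of both groups apart from the rest. Of 7 basal mammary epithelium markers, all were detected and 3 (KRT5, KRT14 and KRT17) fell. The 7 had a summed level of 9096 to 11082 CPM in siControl and 5520 to 7088 CPM in siDAB2IP. TP63 was not called (log2 fold change −0.57, edgeR adjusted p = 0.0615, 0.00456 when same-numbered libraries were blocked). Of 6 luminal hormone-responsive markers, ESR1, PGR, KRT19 and TFF1 were too low to test. FOXA1 rose from a low level, with means of 4.64 CPM in siControl and 9.67 CPM in siDAB2IP (log2 fold change 1.05, edgeR adjusted p = 0.0274). GATA3 was not called (log2 fold change −0.45, edgeR adjusted p = 0.0616, 0.0282 when same-numbered libraries were blocked). Of 5 fibroblast markers 2 could be tested. COL1A1 rose, with means of 15.3 and 26.3 CPM in siControl and siDAB2IP (log2 fold change 0.78, edgeR adjusted p = 0.0129). The more abundant DCN was not called (log2 fold change −0.49, edgeR adjusted p = 0.151, 0.0247 when blocked in the same way). Over all genes tested, 6.55% rose. The 5 had a summed level of 162 to 291 CPM in siControl and 146 to 205 CPM in siDAB2IP. The 6 immune and endothelial markers summed to 11.4 to 16.0 CPM in siControl and 7.65 to 11.4 CPM in siDAB2IP. Of these 3 could be tested, and none was called. Of 10 proliferation markers 6 fell, beside 7.65% of all genes tested. With same-numbered libraries blocked, CCNB1, PLK1 and BIRC5 also fell (edgeR adjusted p = 0.0239, 0.04 and 0.0276, against 0.0641, 0.0856 and 0.0769 without the block). The 10 markers summed to 681, 833 and 981 CPM in siControl 1, 2 and 3. In siDAB2IP 1, 2 and 3 they summed to 362, 533 and 142 CPM. In these bulk libraries fewer cells of a kind and less RNA per cell cannot be told apart.

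After DAB2IP knockdown the RNA of 1 receptor (NOTCH1) and 2 ligands (JAG1 and DLL1) fell, and that of no member rose. The remaining 7 members did not pass the test. Over all 15430 genes tested, 7.65% fell and 6.55% rose at an adjusted p under 0.05, so that 3 of 10 members falling compares with 7.65% of all genes. The members' log2 fold changes had a median of −0.07, beside 0.01 over all genes, with 5 members below 0 and 5 above. At an unadjusted p under 0.05 there were 3 members lower and 1, NOTCH3, higher, beside 15.5% and 14.5% of all genes. The 3 libraries of siDAB2IP lay wholly below the 3 of siControl for the same 3 members that fell, and wholly above for none. Over all genes tested, 18.3% did not overlap and were lower, and 17.6% did not overlap and were higher. A list of 10 genes is short, and it was chosen with earlier results of these data known. These shares are given as a description.

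**Figure D1:**
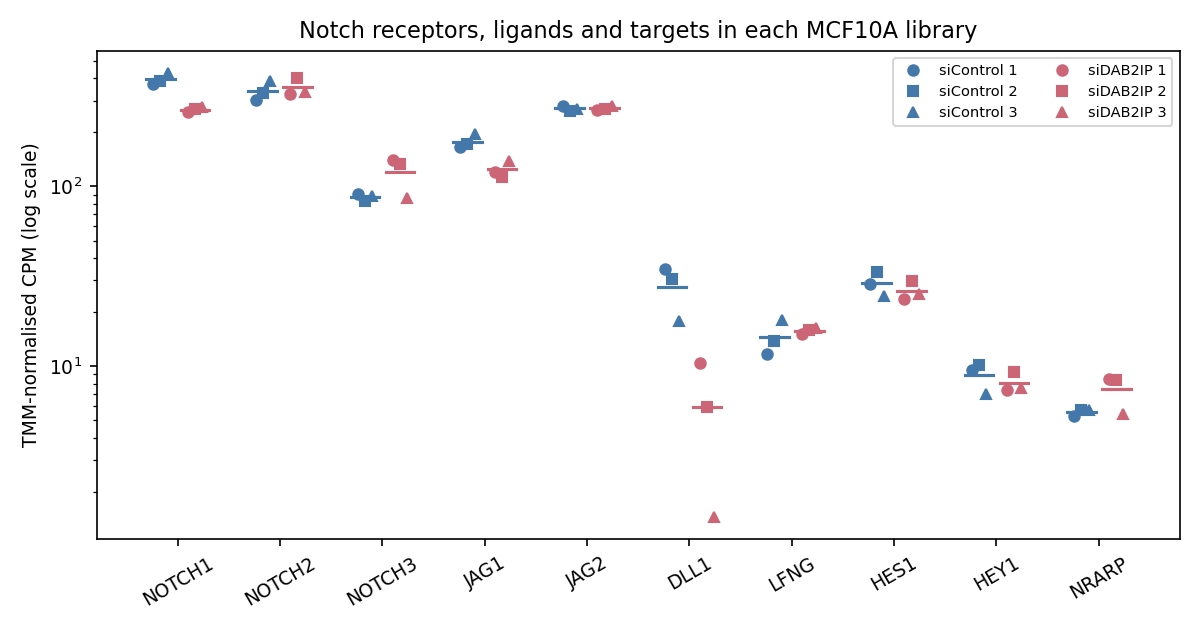
Level of each of the 10 members in each library, in TMM-normalized CPM on a log scale; points are single libraries, the point shape gives the replicate number, and bars are group means of 3. The siDAB2IP points lie below all siControl points for NOTCH1, JAG1 and DLL1, and overlap with them for the other members.

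NOTCH1 (ENSG00000148400, chromosome 9, 136494433 to 136545786, minus strand, GRCh38) encodes the receptor with the highest FPKM in both groups. It was at 372, 386 and 428 CPM in siControl and at 258, 269 and 276 CPM in siDAB2IP 1, 2 and 3. Every siDAB2IP library was therefore below every siControl library, and the spread within each group was small, with coefficients of variation of 7.47% and 3.38%. The level fell to 67.8% of control (log2 fold change −0.56 ± 0.10, SE, 95% interval −0.79 to −0.33, edgeR adjusted p = 0.00768). Between libraries of the same number the log2 ratio was −0.52, −0.52 and −0.63.

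NOTCH2 (ENSG00000134250, chromosome 1, 119911553 to 120069626) was at 303, 333 and 387 CPM in siControl and at 328, 404 and 337 CPM in siDAB2IP. The groups overlapped, and no difference was detected (log2 fold change 0.06, 95% interval −0.22 to 0.35, edgeR adjusted p = 0.785). NOTCH2 has partial copies in the genome, and reads that fit several copies could be lost or shared. The counts of the copy NOTCH2NLA reached at most 0.452% of those of NOTCH2 in any library. Such counts hold only reads assigned to the copy, so they cannot show how many reads of NOTCH2 were lost.

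NOTCH3 (ENSG00000074181, chromosome 19, 15159038 to 15200981) differed among the siDAB2IP libraries. It was at 91.0, 83.4 and 88.2 CPM in siControl, and at 141, 133 and 86.3 CPM in siDAB2IP 1, 2 and 3. The libraries siDAB2IP 1 and 2 were above all controls, whereas siDAB2IP 3 was among them. The log2 fold change of 0.46 ± 0.16 (SE) did not pass the test (edgeR adjusted p = 0.0895), nor did it when same-numbered libraries were blocked (adjusted p = 0.0545). Without siDAB2IP 3 the log2 fold change was 0.65 and the edgeR adjusted p was 0.000926. With all libraries and no filter on low counts it was 0.00502. The same library had the lowest summed proliferation markers (142 CPM), and the part of these in the result was not tested.

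Among the ligands, DLL1 had the largest difference. DLL1 (ENSG00000198719, chromosome 6, 170282206 to 170306565) encodes a Delta-like ligand. It had 556, 662 and 302 counts in siControl 1, 2 and 3, or 34.6, 30.7 and 17.7 CPM, and 185, 107 and 25 counts in siDAB2IP 1, 2 and 3, or 10.4, 5.93 and 1.45 CPM. The highest siDAB2IP library lay below the lowest siControl library. The spread was wide within both groups, with coefficients of variation of 32.0% and 75.7%, and the libraries numbered 3 were the lowest of each. The mean fell to 21.4% of control (log2 fold change −2.22 ± 0.49, SE, 95% interval −3.31 to −1.12, edgeR adjusted p = 0.0169). With same-numbered libraries blocked, the adjusted p was 0.00093, and the log2 ratios of same-numbered libraries were −1.68, −2.28 and −3.23. Without siDAB2IP 3 the log2 fold change was −1.76 (adjusted p = 0.00183), and without siDAB2IP 1 it was −2.90 (adjusted p = 0.0075). Without siControl 1 or without siControl 2 the adjusted p was 0.0621 and 0.0612, and the call was lost. The lowest library, siDAB2IP 3, was also the one with the lowest summed proliferation markers. The part of these markers in the DLL1 result was not tested.

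JAG1 (ENSG00000101384, chromosome 20, 10637684 to 10673999) encodes a Jagged ligand. It was at 165, 173 and 196 CPM in siControl and at 121, 113 and 139 CPM in siDAB2IP 1, 2 and 3, with no overlap between groups. Its exons overlap those of AL050403.2 on the opposite strand, which had 0 or 1 counts. The level fell to 70.0% of control (log2 fold change −0.51 ± 0.11, SE, 95% interval −0.77 to −0.26, edgeR adjusted p = 0.0166). This change is close in size to that of NOTCH1, but leaving out any one of siControl 2, siControl 3, siDAB2IP 1 or siDAB2IP 2 moved the adjusted p to between 0.0534 and 0.064.

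JAG2 (ENSG00000184916, chromosome 14, 105140981 to 105168824), the other Jagged ligand, had the log2 fold change nearest to 0 of the 10 members. It was at 282, 263 and 270.5 CPM in siControl and at 268, 271 and 281 CPM in siDAB2IP. The groups overlapped (log2 fold change 0.01, 95% interval −0.20 to 0.22, edgeR adjusted p = 0.967). The interval leaves out a change of the size seen for JAG1. Exons of JAG2 overlap those of AL512356.1 on the same strand, which had 0 counts in every library, so reads in the shared part may have been left out by the counting.

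**Figure D2:**
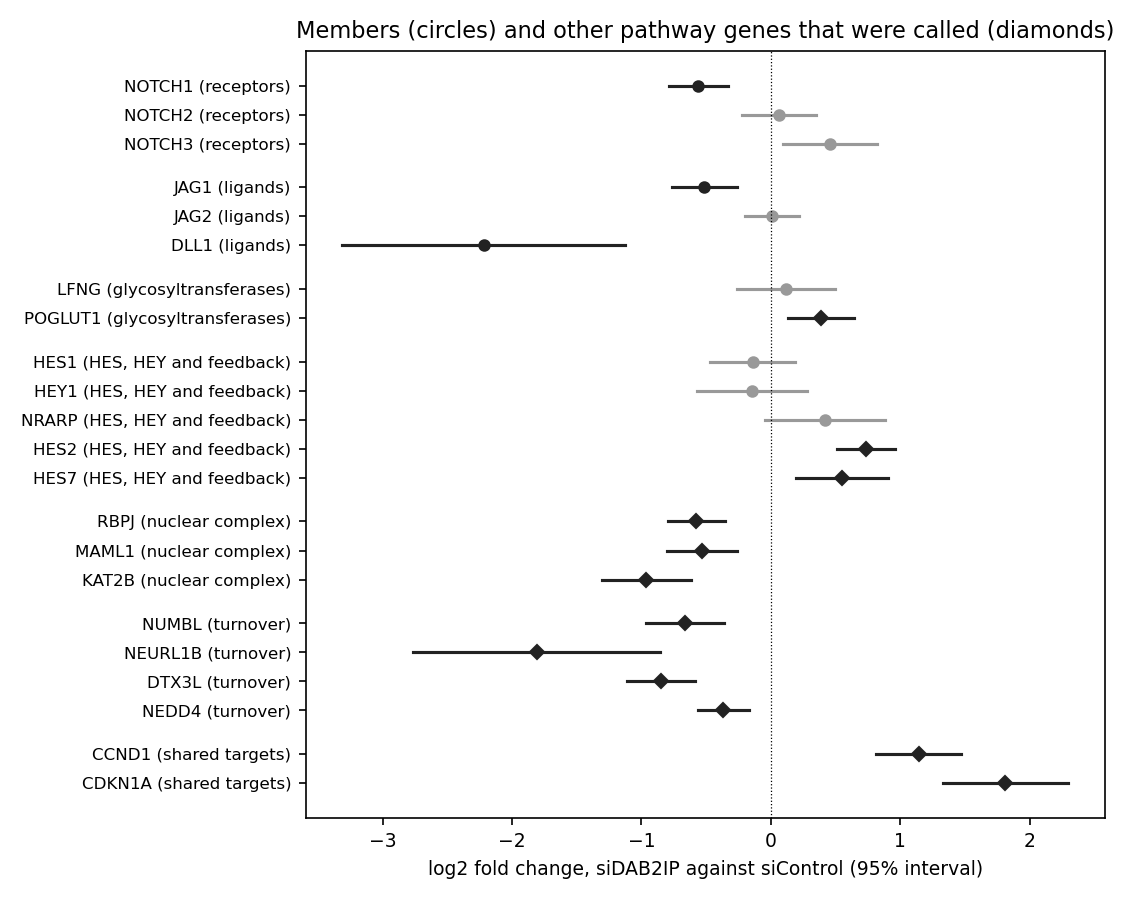
The log2 fold change of siDAB2IP against siControl with its 95% interval from edgeR, for the 10 members (circles) and the 12 other pathway genes past the threshold (diamonds), grouped by role; black marks an adjusted p under 0.05 and gray the rest. The intervals of NOTCH1, JAG1, DLL1, RBPJ, MAML1, KAT2B, NUMBL, NEURL1B, DTX3L and NEDD4 lie below 0. Those of NOTCH3 (gray), POGLUT1, HES2, HES7, CCND1 and CDKN1A lie above 0. Those of NOTCH2, JAG2, LFNG and the canonical targets HES1, HEY1 and NRARP include 0. The intervals are not adjusted for the number of genes, so a gray interval can leave out 0.

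Levels per length were compared as FPKM, the authors' read counts scaled by gene length and by a factor for each library. In siControl the members ran in the order JAG2 (42.1 ± 1.35 FPKM, SD, n = 3), NOTCH1 (37.8 ± 2.80), NOTCH2 (20.1 ± 2.50), JAG1 (19.0 ± 1.71), HES1 (13.9 ± 2.21), NOTCH3 (9.23 ± 0.38), DLL1 (8.51 ± 2.72), LFNG (4.21 ± 0.94), NRARP (3.11 ± 0.13) and HEY1 (2.73 ± 0.52). The library ranges of 3 neighboring pairs overlapped in that order, namely NOTCH2 with JAG1, NOTCH3 with DLL1, and NRARP with HEY1. In siDAB2IP, DLL1 stood last of the 10, at 1.82 ± 1.38 FPKM, although its range overlapped that of HEY1 (2.47 ± 0.32 FPKM). NOTCH3 (12.6 ± 3.12 FPKM) then overlapped with JAG1 (13.2 ± 1.41 FPKM) and with HES1 (12.6 ± 1.53 FPKM).

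The make-up of the receptors and of the ligands differed between the groups. NOTCH1 supplied 56.4%, 56.4% and 56.0% of the summed receptor FPKM in siControl 1, 2 and 3, and 41.9%, 40.5% and 47.6% in siDAB2IP. The mean share was 12.9 percentage points lower in siDAB2IP, with no overlap (two-sided exact permutation test, p = 0.1, the smallest p that 3 libraries against 3 allow). The share of NOTCH3 was 13.8% ± 1.29 (SD, n = 3) in siControl and 21.2% ± 4.46 in siDAB2IP, and that of NOTCH2 29.9% ± 1.43 and 35.4% ± 2.34 (exact permutation p = 0.1 for each). The level of NOTCH2 had a log2 fold change of 0.06, as given above, and that of NOTCH1 was lower. Shares of one sum are not independent of each other. Summed receptor FPKM was 67.1 ± 5.23 in siControl and 59.2 ± 4.08 in siDAB2IP, with an overlap (exact permutation p = 0.2).

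Among the 3 member ligands, JAG2 made up 60.7%, 59.4% and 61.4% of the summed FPKM in siControl and 72.0%, 75.1% and 74.0% in siDAB2IP, a difference of 13.2 percentage points (exact permutation p = 0.1). The level of JAG2 had a log2 fold change of 0.01, as given above, and those of JAG1 and DLL1 were lower. The share of DLL1 was 12.2% ± 3.68 in siControl and 3.20% ± 2.41 in siDAB2IP (exact permutation p = 0.1), and that of JAG1 was 27.3% ± 3.10 and 23.1% ± 1.90, with an overlap (exact permutation p = 0.2). Summed FPKM of these 3 ligands was 69.6 ± 1.89 in siControl and 57.3 ± 1.49 in siDAB2IP (exact permutation p = 0.1). DLK2, a noncanonical ligand that is no member, was at 24.3 ± 4.60 FPKM in siControl and 20.2 ± 5.69 FPKM in siDAB2IP (edgeR adjusted p = 0.439), and its exons overlap those of ABCC10 on the opposite strand. With all 7 ligand genes of the list in the sum, the JAG2 share was 44.8% ± 2.77 and 54.2% ± 4.71, again with no overlap (exact permutation p = 0.1), and the DLL1 share 8.93% ± 2.38 and 2.27% ± 1.65. Shares also depend on the gene length used. Per kilobase of the principal transcript instead of all exons together, NOTCH2 (42.3%) stood above NOTCH1 (39.1%) in siDAB2IP, while NOTCH1 still led in siControl (51.5% against 36.2%).

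**Figure D3:**
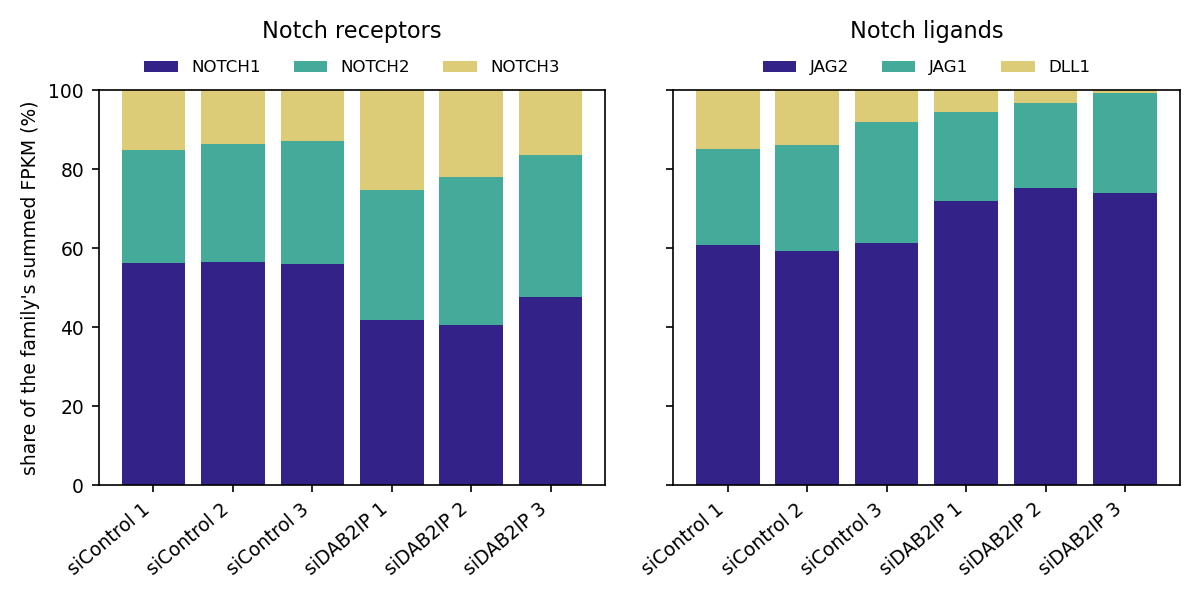
Share of NOTCH1, NOTCH2 and NOTCH3 in their summed FPKM (left) and of JAG2, JAG1 and DLL1 in theirs (right), in percent, as 1 stacked bar per library. The NOTCH1 share is 56.0% to 56.4% in the siControl libraries and 40.5% to 47.6% in the siDAB2IP libraries, and the JAG2 share is 59.4% to 61.4% and 72.0% to 75.1%.

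None of the 3 direct targets among the members passed the test. HES1 (ENSG00000114315, chromosome 3, 194136145 to 194138732), a repressor and a widely used readout of Notch, was at 28.7, 33.5 and 24.5 CPM in siControl and at 23.7, 29.9 and 25.2 CPM in siDAB2IP (log2 fold change −0.14, 95% interval −0.47 to 0.19, edgeR adjusted p = 0.57). HEY1 (ENSG00000164683), a related repressor, was at 9.53, 10.2 and 6.99 CPM in siControl and at 7.33, 9.25 and 7.60 CPM in siDAB2IP (log2 fold change −0.14, 95% interval −0.57 to 0.28, edgeR adjusted p = 0.664). For both genes the groups overlapped. The interval of HEY1 still allows a fall of the size seen for NOTCH1, and that of HES1 does not.

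NRARP (ENSG00000198435, chromosome 9, 137300482 to 137302251), which binds the intracellular domain and lowers its activity, was at 5.30, 5.66 and 5.70 CPM in siControl and at 8.52, 8.36 and 5.39 CPM in siDAB2IP 1, 2 and 3. As for NOTCH3, siDAB2IP 1 and 2 were above all controls and siDAB2IP 3 was not. The log2 fold change was 0.42 ± 0.21 (SE, edgeR adjusted p = 0.211), and without siDAB2IP 3 it was 0.60 (adjusted p = 0.0351). LFNG (ENSG00000106003, chromosome 7, 2512529 to 2529177), a sugar transferase of the Fringe family that tunes which ligands a receptor responds to, was at 11.7, 13.8 and 18.1 CPM in siControl and at 15.0, 15.9 and 16.4 CPM in siDAB2IP (log2 fold change 0.12, 95% interval −0.26 to 0.49, edgeR adjusted p = 0.697).

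**Figure D4:**
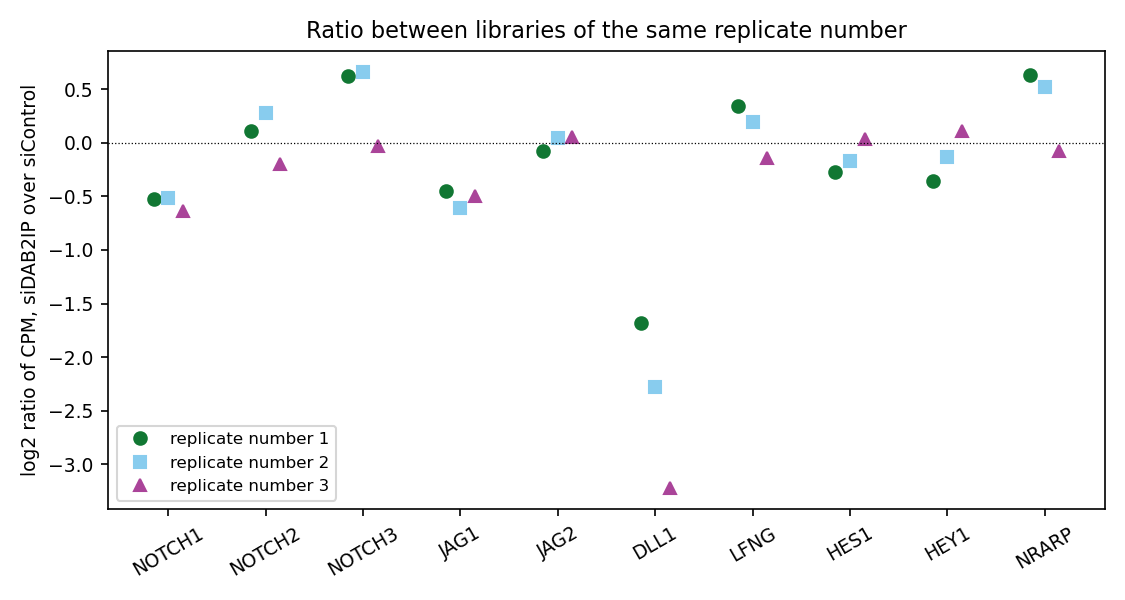
The log2 ratio of siDAB2IP over siControl between libraries of the same replicate number, for each member, from log2(CPM + 0.5). For NOTCH1, JAG1 and DLL1 all 3 points lie below 0, whereas for NOTCH3 and NRARP the points of numbers 1 and 2 lie above 0.5 and that of number 3 lies just below 0.

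The promoters of HES1, JAG1 and NOTCH1 are shown because HES1 is the direct target with the highest level per length among the members, and the other two are the members that fell and have a promoter in the RefSeq table used here. Each is the 250 bases before the RefSeq start in GRCh38.p14, 5′ to 3′ on the gene's strand, with the RBPJ core TGGGAA in capitals. They lie at chr3:194135898-194136147 (plus strand), chr20:10674000-10674249 (minus strand) and chr9:136546049-136546298 (minus strand). The RefSeq start of NOTCH1 is 262 bases upstream of the start in the count table.
HES1: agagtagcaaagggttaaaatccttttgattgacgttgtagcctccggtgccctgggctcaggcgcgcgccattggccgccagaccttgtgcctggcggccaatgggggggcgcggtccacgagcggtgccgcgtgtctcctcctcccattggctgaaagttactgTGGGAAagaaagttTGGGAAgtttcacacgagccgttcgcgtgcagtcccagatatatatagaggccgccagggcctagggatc
JAG1: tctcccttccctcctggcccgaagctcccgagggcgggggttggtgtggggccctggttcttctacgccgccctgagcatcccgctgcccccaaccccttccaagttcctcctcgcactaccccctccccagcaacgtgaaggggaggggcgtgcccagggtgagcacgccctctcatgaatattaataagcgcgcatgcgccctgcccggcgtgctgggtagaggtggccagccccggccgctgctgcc
NOTCH1: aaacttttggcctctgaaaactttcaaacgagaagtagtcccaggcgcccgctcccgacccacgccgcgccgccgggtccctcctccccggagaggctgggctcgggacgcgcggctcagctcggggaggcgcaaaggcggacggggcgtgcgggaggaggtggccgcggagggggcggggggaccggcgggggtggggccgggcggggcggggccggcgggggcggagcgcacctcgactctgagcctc
HES1 held 2 copies of the core on its own strand, with the first base at −84 and −70 from the start, and 3 copies of the N box CACNAG, a sequence bound by HES proteins. The windows of JAG1 and NOTCH1 held neither. Both strands were searched, and no copy of one motif overlapped a copy of the other in HES1. Of 35116 RefSeq promoters 20.8% held the core at least once and 2.9% held it at least 2 times, and 32% held the N box. Of the 10 members 8 were in the table. The core was in 1 of these (HES1), and the N box in HES1 and, 1 time, in NOTCH3. A match is a description of the letters in this window.

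The other genes of the pathway were 74 genes in 9 lists by role, of which 65 could be tested. Of these 5 rose (7.69%, beside 6.55% of all genes) and 7 fell (10.8%, beside 7.65%), with a median log2 fold change of 0.01, the same as over all genes. The groups did not overlap and siDAB2IP was higher for 29.2% of them, beside 17.6% of all genes, and lower for 16.9%, beside 18.3%. When same-numbered libraries were blocked, 11 rose and 9 fell, in a fit in which 9.59% of all genes rose and 11.4% fell. The 6 further genes that rose in that fit were RFNG, FURIN, PSEN2, PSENEN, SPEN and L3MBTL3, and the 2 that fell were EOGT and ADAM17. Exons of RFNG, PSENEN and ADAM17 overlap those of the expressed genes GPS1, U2AF1L4 and IAH1 on the opposite strand. The 9 genes too low to test were NOTCH4, DLL4, DLK1, NEURL1, DTX1, RBPJL, HES5, HEY2 and HEYL, with at most 13 counts in any library.

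Of 9 tested genes of the nuclear complex, 3 fell and 0 rose. Beside this and the counts of the other lists below, 7.65% of all genes tested fell and 6.55% rose. RBPJ, the DNA-binding partner of the Notch intracellular domain, was at 49.2, 55.9 and 55.8 CPM in siControl and at 35.5, 36.2 and 36.3 CPM in siDAB2IP (log2 fold change −0.58 ± 0.10, SE, edgeR adjusted p = 0.0059). MAML1, a Mastermind coactivator, was at 102, 97.1 and 93.5 CPM in siControl and at 74.2, 72.7 and 55.5 CPM in siDAB2IP (−0.53 ± 0.12, adjusted p = 0.0187), a call lost without siControl 1 or siControl 2 (adjusted p = 0.0528 and 0.0611). KAT2B, a histone acetyltransferase also known as PCAF, was at 12.6, 12.9 and 11.3 CPM in siControl and at 5.81, 6.37 and 6.73 CPM in siDAB2IP (−0.96 ± 0.15, adjusted p = 0.00454). The most abundant gene of this list per length, the acetyltransferase KAT2A, did not pass the test (log2 fold change 0.22, adjusted p = 0.221). These acetyltransferases serve many promoters besides those of Notch targets.

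Among 14 tested genes of trafficking and turnover, 4 fell and 0 rose. NEURL1B, a ubiquitin ligase of the Neuralized family that acts on Notch ligands, was at 20.2, 21.4 and 19.0 CPM in siControl and at 8.80, 6.98 and 1.45 CPM in siDAB2IP 1, 2 and 3 (log2 fold change −1.81 ± 0.43, SE, edgeR adjusted p = 0.0224). As with DLL1, siDAB2IP 3 was the lowest library. Leaving out any one siControl library moved the adjusted p to between 0.0553 and 0.0738. NUMBL, related to the Notch antagonist NUMB, fell by 0.66 on the log2 scale (adjusted p = 0.0122), the Deltex ligase DTX3L by 0.85 (adjusted p = 0.00264) and the ubiquitin ligase NEDD4 by 0.37 (adjusted p = 0.023). The call of NEDD4 was lost without siControl 2 or 3 or siDAB2IP 1 or 2 (adjusted p between 0.0663 and 0.102). Exons of DTX3L overlap those of PARP9 on the opposite strand, and the strand setting of the counting is not given in the sources used here. MIB2, the most abundant gene of the list, was not called (log2 fold change 0.09, adjusted p = 0.653).

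The 9 genes of receptor cleavage and the 14 corepressor genes held no call in either direction, although 4 of the former (FURIN, PSEN2, PSENEN and ADAM17) and 2 of the latter (SPEN and L3MBTL3) passed with same-numbered libraries blocked. NCSTN, a γ-secretase subunit and the most abundant cleavage gene per length, was not called (log2 fold change 0.23, edgeR adjusted p = 0.162). Its exons overlap those of COPA on the opposite strand, which had 3474 to 4904 counts per library. HDAC1, the most abundant corepressor gene per length, was not called either (0.09, adjusted p = 0.628). Of 6 glycosyltransferase genes, POGLUT1, which adds O-glucose to the receptor, was the only one called (log2 fold change 0.39, adjusted p = 0.0497). POFUT1, which adds O-fucose, had 0.26 (adjusted p = 0.0812). The call of POGLUT1 was lost in 10 of 15 alternative analyses, among them those that left out any one library except siDAB2IP 2 (adjusted p between 0.0764 and 0.189).

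Of the HES, HEY and feedback genes, 7 could be tested and 2 rose. HES2 was at 49.2, 44.1 and 44.7 CPM in siControl and at 71.3, 75.0 and 83.4 CPM in siDAB2IP (log2 fold change 0.73 ± 0.10, SE, edgeR adjusted p = 0.00249). HES7 was at 13.5, 15.9 and 20.4 CPM in siControl and at 23.7, 23.1 and 26.0 CPM in siDAB2IP (0.55 ± 0.16, adjusted p = 0.0469), a call lost in 8 of 15 alternatives, among them those that left out any one library except siControl 3 (adjusted p between 0.056 and 0.185). HES4, with the highest FPKM of the list averaged over all 6 libraries though not within either group, did not pass the test (log2 fold change −0.003, adjusted p = 0.992).

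Targets shared with many other pathways gave 2 called genes of 8, and both rose. CCND1, a cyclin of the G1 phase, was at 115, 141 and 156 CPM in siControl and at 251, 322 and 339 CPM in siDAB2IP (log2 fold change 1.14 ± 0.15, SE, edgeR adjusted p = 0.00183). CDKN1A, the cyclin-dependent kinase inhibitor p21, was at 149, 147 and 148 CPM in siControl and at 369, 454 and 739 CPM in siDAB2IP 1, 2 and 3 (1.81 ± 0.22, adjusted p = 0.00135). The library with the highest CDKN1A was the one with the lowest proliferation markers, siDAB2IP 3. MYC, the most abundant of the list, was not called (log2 fold change 0.06, adjusted p = 0.746). Exons of CCND1 and CDKN1A overlap those of LTO1 and DINOL on the opposite strand, with 520 to 956 and 4 to 20 counts per library. These genes respond to many inputs besides Notch.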

How the data were processed

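RNA from 3 siControl and 3 siDAB2IP MCF10A libraries was sequenced as paired-end reads of 150 bases. Per the labels, the submitters' processing notes name STAR 2.6.1d, featureCounts 1.5.0-p3, DESeq2 1.20.0, edgeR 3.24.3 and hg38. The authors deposited whole-number counts per gene and a table of FPKM. In the latter each count was divided by the gene's exon length and by a factor for the library. That factor is not the plain sum of the library's counts, and how it was derived is not given in the sources used here. Start, end and strand of all 58735 genes were identical in GENCODE 29. The strand setting of the counting is not given in the sources used here.

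The test was edgeR 4.0.16 under R 4.3.3 (filterByExpr, TMM, glmQLFit, glmQLFTest, Benjamini-Hochberg over 15430 genes, threshold 0.05). Shares of FPKM were compared by two-sided exact permutation tests. A count of 3, the limit a count of 0 allows, is 0.139 to 0.187 CPM, which covers counting error only. Alternatives were other scalings and filters, DESeq2 1.42.0, limma 3.58.1 on log2(FPKM + 1) and log2(FPKM + 0.1), a replicate block, and each library left out. The code was tested on simulated data.

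The labels do not say that the libraries came from separate cultures, so p-values measure the spread between these libraries. Nor do they say what a replicate number stands for. Deviations from the group means correlated at 0.297, 0.189 and 0.268 between same-numbered libraries, and at −0.316 to 0.0304 between others. Because the deviations of same-numbered libraries correlated, these libraries were treated as pairs in the replicate block. Deviations sum to 0 within a group, so positive values for same numbers pull the others down. The second range is therefore not independent of the first. The main test has no block, so its p-values leave this pairing out. It called 2192 genes, and the fit with the block called 3233. Where the block changed the call of a gene named here, this is stated with the gene.

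The members and gene lists were chosen with earlier results of these data known. Named genes are DAB2IP, the members, other pathway genes past the threshold, and the gene of each list with the highest mean FPKM over all libraries. Genes that only the replicate block called, DLK2 and the single marker genes were named after their values were seen.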

Additional observations from a re-analysis of the deposited data

How the results depend on the processing

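The falls of DAB2IP and NOTCH1 held in all 15 alternatives, the latter between −0.63 and −0.52 on the log2 scale. The count of 2192 genes changed was 3233 with the replicate block, 1417 with limma on log2(FPKM + 0.1), and 723 to 2524 when 1 library was left out, lowest without siControl 2. The 3 members that fell became 1 to 3 when 1 library was left out (NOTCH1 alone without siControl 2). The count of members that rose, 0, became 1 (NOTCH3) with no filter and 1 with both libraries numbered 3 left out, a choice made after seeing the data. It was 0 to 2 when 1 library was left out, with NOTCH3 and NRARP called without siDAB2IP 3. The 5 other pathway genes that rose became 9 with library size only, 3 with at least 10 counts in every library, 11 with the replicate block, 3 with either limma fit, and 3 to 6 when 1 library was left out, for which the 7 that fell became 4 to 8. The replicate block changed no call of a member. Signs turned only for members near 0 that were not called. JAG2 was at −0.0035 with no filter, −0.0038 with at least 10 counts, −0.0178 without both libraries numbered 3, and −0.0287 to 0.0227 when 1 library was left out. With 1 library left out, NOTCH2 ranged from −0.0361 (without siControl 1; −0.0347 without siDAB2IP 2) to 0.148, and LFNG from −0.0361 to 0.286. The cause was not tested. Low counts limit DLL1 in siDAB2IP 3 (25 counts) and NRARP (85 to 151 counts).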
